A study of Canis lupus familiaris with 12 samples.

Results

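MMP9 is a secreted matrix metalloproteinase that cleaves denatured collagen (gelatin) and the type IV collagen of basement membranes. It leaves the cell as an inactive zymogen and is switched on by proteolytic removal of its propeptide. TIMP1 and TIMP2 are small secreted proteins that occupy the active site of metalloproteinases. TIMP1 also binds the MMP9 zymogen, whereas TIMP2 is best known for pairing with the other gelatinase, MMP2. In kidney tubules, gelatinases and TIMPs are known for turning over the tubular basement membrane. The transcripts of these 3 genes were followed here in the dog kidney tubule line MDCK (Madin-Darby canine kidney), which is epithelial, in acid and in control medium.

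The members were all gene probes of the array whose accession was a RefSeq transcript of dog MMP9, TIMP1 or TIMP2. There were 7 of them among 43603 probes: 4 for MMP9, 2 for TIMP1 and 1 for TIMP2. Only 1484 probes (3.40%) could be named, and they stood for 944 genes, of which these are 3. The 3 genes were chosen by their values in the comparison of pH 7.0 with pH 7.4 on these same arrays, so those values are given as a description, with standard errors and without tests. No probe or transcript sequence was used here.

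The cells came from a culture collection, were grown in serum and were moved to serum-free DMEM/Ham's F-12 at pH 7.4 for 24 h before the study. They then spent 24 h either at pH 7.0, reached by lowering the bicarbonate of the medium, or at pH 7.4. There were 3 biological replicates, each with 1 RNA per condition and its own extraction date. All 6 RNAs were run in duplicate on one-colour Cy3 arrays, so that arrays 1 and 2, 3 and 4, and 5 and 6 of a group belonged to biological replicates 1, 2 and 3. All replicates are extracts of 1 cell line, so errors and p-values do not reach beyond such extracts. The 4 arrays of a biological replicate also shared a slide and a scan date, which cannot be told apart from the replicate. The study's title asks about proinflammatory cytokine genes under acid stress. The arrays measured transcripts, not secreted protein or gelatinase activity. In such bulk RNA, a change in the share of cells that hold a transcript and a change in its amount per cell cannot be told apart.

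Levels are given as log2 of the processed Cy3 signal minus the 75th percentile of the array, so 0 is the signal at that percentile. The share of probes called well above background ran from 49.4% to 70.4% over the arrays, and the 4 arrays of biological replicate 2 were lowest, at 49.4% to 54.1%. The 75th percentile itself lay between 410 and 944 intensity units. A change is the log2 level at pH 7.0 minus that at pH 7.4 within a biological replicate. Its estimate is given with the standard error (SE) of a limma fit over 3 pairs of RNAs. That SE is moderated: limma combines a probe's own spread with that of all probes in the fit (9.67 moderated degrees of freedom). It can be smaller or larger than the 3 changes alone would give. For the never-saturated member probes the SD of the 3 changes is therefore given too. Levels of different probes cannot be set against each other, because probes differ in how strongly they bind, so only changes are compared between genes. The fit took the 27136 probes that at least 6 of the 12 arrays called well above background. All 7 member probes entered it. Only the MMP9 probe A_11_P053481 had an array below that limit, pH 7.4 array 3.

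MMP9 had a higher signal at pH 7.0 in every biological replicate by both of its probes that never saturated. That direction in all 3 replicates was shared by 18% of all tested probes, and nothing is read from this share, since MMP9 was chosen for the difference. The estimates were 4.63-fold for A_11_P053481 and 4.79-fold for A_11_P053471. TIMP1 was lower at pH 7.0 in biological replicate 1 and higher in biological replicates 2 and 3 by both of its probes. TIMP2 was slightly higher in all 3, by its only probe.

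The MMP9 probe A_11_P053471 read -0.14, 0.63, 1.71, 1.73, 3.66 and 2.78 on arrays 1 to 6 at pH 7.0. On pH 7.4 arrays 1 to 6 it read -2.34, -0.85, -1.59, -1.34, 1.60 and 1.34. Within each biological replicate both acid arrays lay above both control arrays, while across replicates the groups overlapped, because the control arrays of replicate 3 exceeded the acid arrays of replicate 1. The processed signal ran from 648 to 10230 intensity units at pH 7.0 and from 137 to 2109 at pH 7.4. The mean levels over RNAs were 1.73 ± 1.49 at pH 7.0 and -0.53 ± 1.73 at pH 7.4 (SD, n = 3 each). The spread between replicates within a condition was thus wide next to the distance between conditions. The change within replicates varied less. It was 1.84, 3.19 and 1.75 in biological replicates 1, 2 and 3 (SD 0.81), which gave 2.26 ± 0.30 (SE).

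The MMP9 probe A_11_P053481 was dimmer but had the same pattern. It read -3.33, -2.52, -1.48, -1.30, 0.76 and -0.34 on pH 7.0 arrays 1 to 6, and -4.75, -4.60, -4.53, -4.15, -1.38 and -2.05 on pH 7.4 arrays 1 to 6. Again both acid arrays were above both control arrays in each biological replicate, and the groups overlapped only across replicates. The mean levels were -1.37 ± 1.57 at pH 7.0 and -3.58 ± 1.62 at pH 7.4 (SD, n = 3 each). The change was 1.75, 2.95 and 1.93 in biological replicates 1, 2 and 3 (SD 0.65), or 2.21 ± 0.28 (SE). The low end of this probe is less secure than that of A_11_P053471. On pH 7.4 array 3 its processed signal was 17.9, against a median spot signal of 127.5 and a local background of 46. When the spot signals were corrected instead by the normexp method, with outlying local backgrounds replaced, the change of A_11_P053481 was 1.31, and it was 0.87, 1.47 and 1.59 by replicate. Normexp without that replacement gave 0.72, with -0.31 in biological replicate 2. A_11_P053471 kept its direction in all 3 replicates under both versions, at 1.99 and 1.75.

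Acid arrays lay entirely above control arrays within each replicate for 4.3% of all tested probes, and nothing is read from this share for MMP9 either. Both probes also ordered the 6 RNAs alike: pH 7.0 replicate 3 was highest, followed by pH 7.0 replicate 2, pH 7.4 replicate 3, pH 7.0 replicate 1, pH 7.4 replicate 2 and pH 7.4 replicate 1. For A_11_P053471 the levels in that order were 3.22, 1.72, 1.47, 0.25, -1.47 and -1.59. The levels 1.72 and 1.47, and likewise -1.47 and -1.59, lay closer together than the median gap of 0.51 between duplicate arrays of this probe. They are therefore not separated beyond technical error.

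**Figure D1:**
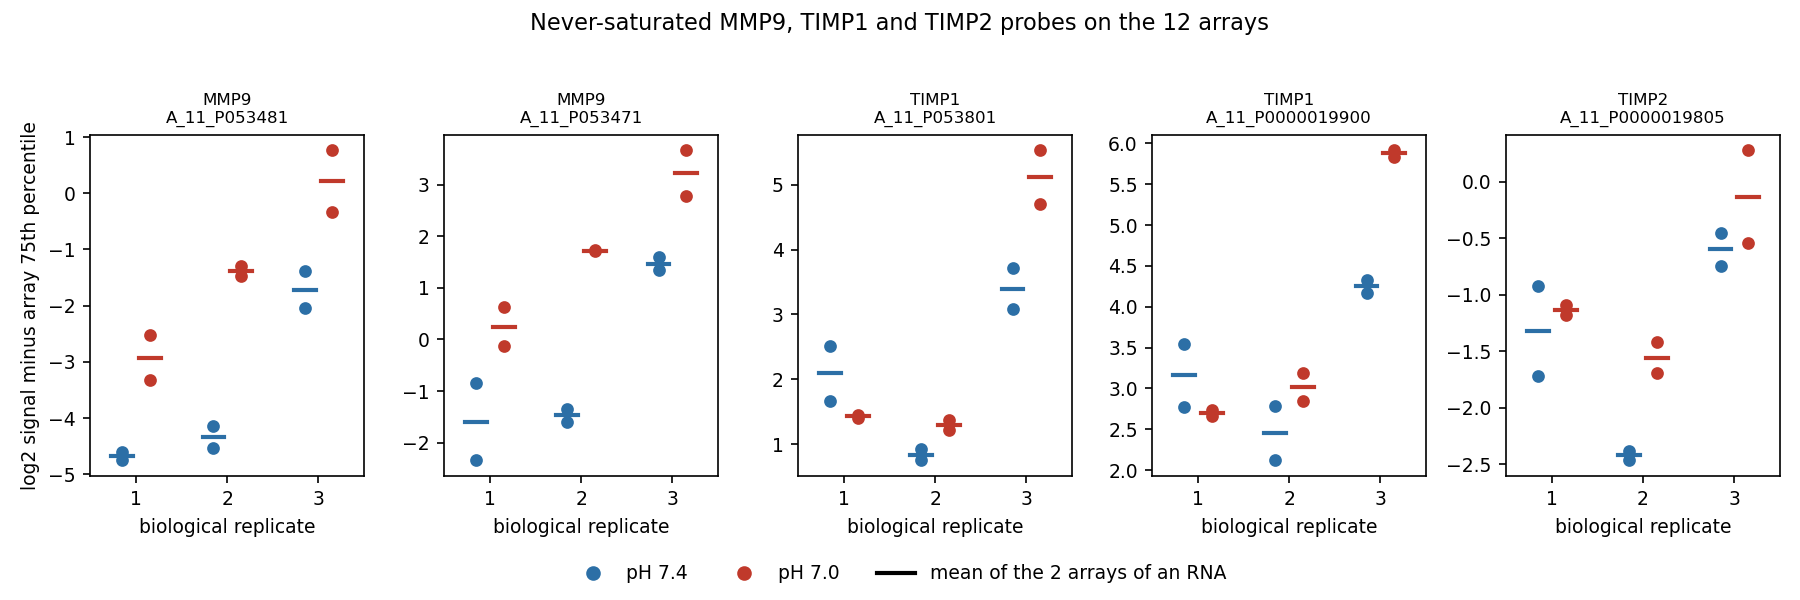
Level of each never-saturated probe on each array (log2 signal minus the array's 75th percentile, vertical axis with its own scale in each panel) by biological replicate (horizontal axis). Points are arrays, pH 7.0 in red and pH 7.4 in blue, and short lines are the means of the 2 arrays of an RNA. Both MMP9 probes have red above blue in all 3 replicates, both TIMP1 probes have red below blue in replicate 1 and above it in 2 and 3, and every panel is highest in replicate 3.

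The other MMP9 probes, A_11_P053796 and A_11_P0000019937, were so bright that the scanner saturated, and they are given apart. Arrays 3 to 6 at pH 7.0 (4 of 6) and arrays 5 and 6 at pH 7.4 (2 of 6) were saturated for each, at a median spot signal of 65528. In biological replicate 1 no array was saturated, and MMP9 could be measured. A_11_P053796 read 5.37 and 5.65 at pH 7.0 against 4.68 and 4.28 at pH 7.4, a 2.05-fold difference. A_11_P0000019937 read 5.64 and 5.69 against 4.78 and 4.29, a 2.19-fold difference. Both acid arrays lay above both control arrays for each probe, so all 4 MMP9 probes had the same direction in this replicate. The 2 bright probes gave smaller folds there than the dimmer A_11_P053481 and A_11_P053471, at 3.37 and 3.58.

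In biological replicate 2 the acid arrays of the bright MMP9 probes were saturated and the control arrays were not. MMP9 was therefore at least 6.45-fold higher by A_11_P053796 and at least 5.68-fold higher by A_11_P0000019937, taking each saturated spot at its recorded value. A_11_P053481 and A_11_P053471, which stayed below the ceiling, gave 7.73-fold and 9.12-fold. In biological replicate 3 all 4 arrays of both bright probes were saturated, and no change can be read from them. Their nominal differences, -0.094 and -0.15, compare one ceiling with another. In the same replicate A_11_P053481 and A_11_P053471 read 3.80-fold and 3.37-fold higher at pH 7.0. The means of the bright probes over 3 replicates, 1.21 and 1.16 on the log2 scale, thus contain capped values and are not used as estimates of the change.

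**Figure D2:**
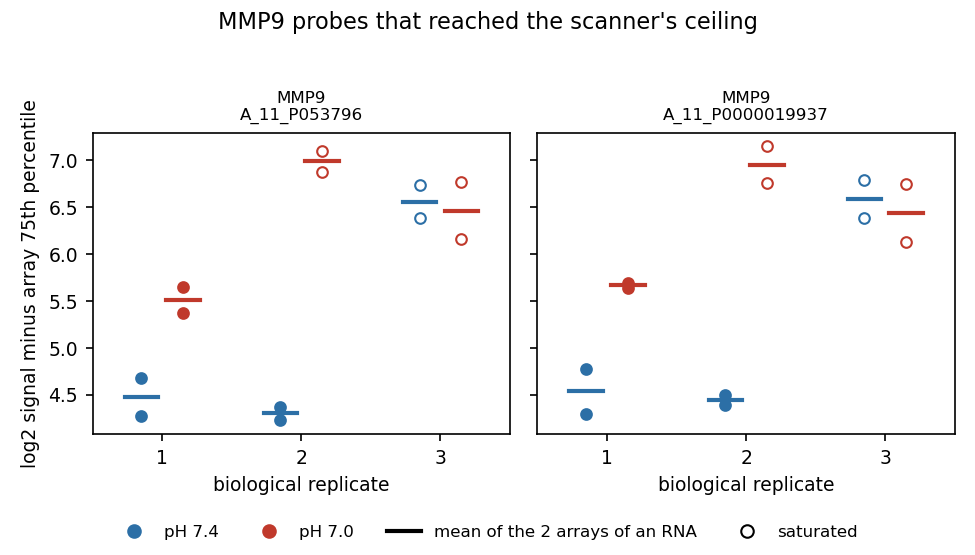
Level of the 2 bright MMP9 probes on each array (log2 signal minus the array's 75th percentile) by biological replicate, with open symbols for saturated arrays, red for pH 7.0 and blue for pH 7.4. Replicate 1 has no saturated array and reads 2.05-fold and 2.19-fold higher at pH 7.0, replicate 2 is capped at pH 7.0 only, and replicate 3 is capped on all 4 arrays.

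TIMP1, the inhibitor that also binds the MMP9 zymogen, did not keep 1 direction. Its probe A_11_P0000019900 read 2.74, 2.66, 2.84, 3.18, 5.84 and 5.91 on pH 7.0 arrays 1 to 6, and 3.55, 2.78, 2.78, 2.12, 4.17 and 4.33 on pH 7.4 arrays 1 to 6. The acid arrays were below the control arrays in biological replicate 1 and above them in replicates 2 and 3. The nearest arrays of the conditions were close in replicate 1, at 2.74 and 2.78, and in replicate 2, at 2.84 and 2.78. The share of all probes without overlap in such mixed directions was not counted, and nothing is read from it. The changes were -0.46, 0.56 and 1.63 (SD 1.05), or 0.58 ± 0.35 (SE). The mean levels were 3.86 ± 1.75 at pH 7.0 and 3.29 ± 0.91 at pH 7.4 (SD, n = 3 each), so the means differed by less than the spread between extracts.

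The other TIMP1 probe, A_11_P053801, repeated this pattern. It read 1.45, 1.40, 1.21, 1.36, 5.53 and 4.71 on pH 7.0 arrays 1 to 6, and 2.52, 1.66, 0.92, 0.75, 3.72 and 3.08 on pH 7.4 arrays 1 to 6. Its changes were -0.66, 0.46 and 1.72 in biological replicates 1, 2 and 3 (SD 1.19), or 0.51 ± 0.38 (SE). In biological replicate 3, TIMP1 was 3.30-fold higher at pH 7.0 by this probe and 3.09-fold by A_11_P0000019900. That replicate decided the mean: without it the TIMP1 change was -0.10 by A_11_P053801 and 0.050 by A_11_P0000019900. Without biological replicate 1 the same probes stood at 1.09 and 1.10.

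For both TIMP1 probes the highest RNA was pH 7.0 replicate 3, at 5.88 for A_11_P0000019900 and 5.12 for A_11_P053801, and pH 7.4 replicate 3 came next at 4.25 and 3.40. The lowest was pH 7.4 replicate 2, at 2.45 and 0.83. Between these, A_11_P0000019900 placed pH 7.4 replicate 1, pH 7.0 replicate 2 and pH 7.0 replicate 1 at 3.16, 3.01 and 2.70. A_11_P053801 placed pH 7.4 replicate 1 at 2.09 and then pH 7.0 replicates 1 and 2 at 1.43 and 1.29. The order of the acid RNAs of replicates 1 and 2 thus differed between the probes of 1 gene. The step of A_11_P053801 from 1.43 to 1.29 is smaller than the probe's median duplicate gap of 0.40.

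TIMP2, the inhibitor known for its pairing with MMP2, was read by 1 probe, A_11_P0000019805. It read -1.18, -1.09, -1.70, -1.42, 0.28 and -0.54 on pH 7.0 arrays 1 to 6, and -0.92, -1.72, -2.38, -2.47, -0.45 and -0.75 on pH 7.4 arrays 1 to 6. The arrays of the conditions were apart only in biological replicate 2, and they overlapped in replicates 1 and 3. The changes were 0.18, 0.86 and 0.47 (SD 0.34), or 0.50 ± 0.24 (SE), which is 1.42-fold. In replicates 1 and 3 the change was smaller than the larger of the 2 duplicate gaps, 0.80 and 0.82. With normexp the TIMP2 change was -0.0090, because biological replicate 2 then read -0.55, and with outlying backgrounds replaced it was 0.35. The mean levels were -0.94 ± 0.73 and -1.45 ± 0.92 at pH 7.0 and pH 7.4 (SD, n = 3 each). The RNAs ran from -0.13 for pH 7.0 replicate 3 through -0.60, -1.14, -1.32 and -1.56 to -2.42 for pH 7.4 replicate 2. The steps between -1.14, -1.32 and -1.56 are each below the probe's median duplicate gap of 0.28.

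**Figure D3:**
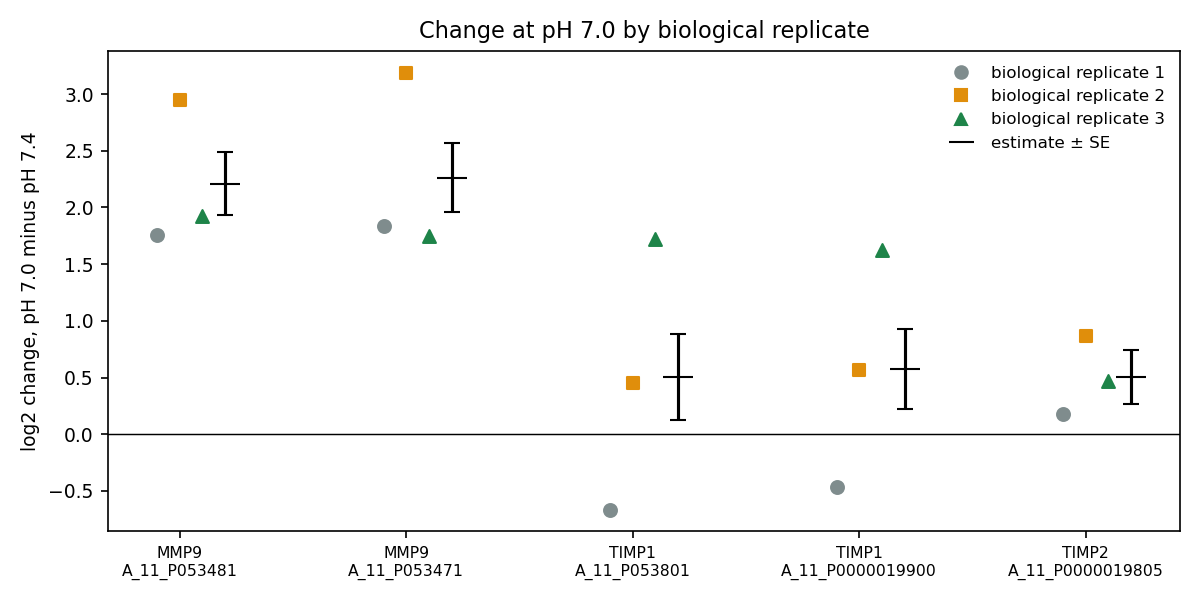
Change at pH 7.0 (log2, pH 7.0 minus pH 7.4, vertical axis) of each never-saturated probe. Symbols give the 3 biological replicates and the bar gives the limma estimate ± SE. Both MMP9 probes lie between 1.75 and 3.19 in all replicates, TIMP1 runs from -0.66 in replicate 1 to 1.72 in replicate 3, and TIMP2 lies between 0.18 and 0.86.

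Changes on the log2 scale were set against each other between genes, with the limit that probes of the same gene can also differ in change. In biological replicates 1 and 2 the MMP9 change exceeded the TIMP1 change by 2.22 to 2.73, over the 4 pairings of a never-saturated MMP9 probe with a TIMP1 probe. The bright MMP9 probes, unsaturated in replicate 1, changed there by only 1.03 and 1.13, against 1.75 and 1.84 for the never-saturated ones. By the bright probes MMP9 thus exceeded TIMP1 and TIMP2 in that replicate by less. In biological replicate 3 MMP9 and TIMP1 differed in change by only 0.029 to 0.30. For A_11_P053471 against A_11_P0000019900 the difference was 2.30, 2.63 and 0.12, with a mean of 1.68 (SD 1.36, n = 3). MMP9 against TIMP2 was steadier, at 1.66, 2.32 and 1.29 for A_11_P053471 (mean 1.76, SD 0.53, n = 3) and at 1.57, 2.09 and 1.46 for A_11_P053481. The MMP9 transcript was thus higher relative to TIMP2 in all 3 replicates and relative to TIMP1 in replicates 1 and 2. In replicate 3 the acid medium's MMP9 and TIMP1 signals were higher by about the same factor. With normexp the mean of A_11_P053471 against A_11_P0000019900 was 0.99. In biological replicate 2 that method put the MMP9 probe A_11_P053481 at -0.31, below the TIMP1 probes at 0.68 and 1.09. With outlying backgrounds replaced, the MMP9 probe was at 1.47 and the TIMP1 probes at 0.37 and 0.56. These differences come from the comparison by which the genes were chosen and have no test.

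All 3 genes also had their highest levels in biological replicate 3, in both media. At pH 7.4, replicate 3 exceeded the mean of replicates 1 and 2 by 2.79 (A_11_P053481) and 3.00 (A_11_P053471) for MMP9, on the log2 scale. These shifts were larger than those of 99.97% and 99.98% of the tested probes. The bright MMP9 probes, capped in replicate 3, stood at least 2.17 (A_11_P053796) and at least 2.10 (A_11_P0000019937) higher there at pH 7.4, since both control arrays of that replicate were saturated. For TIMP1 the shift at pH 7.4 was 1.44 by A_11_P0000019900 and 1.94 by A_11_P053801, and for TIMP2 (A_11_P0000019805) it was 1.272, above 98.2%, 99.6% and 97.0% of probes.

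At pH 7.0 the same shift of replicate 3 was 2.37 and 2.24 for MMP9 by A_11_P053481 and A_11_P053471. It was 3.02 and 3.76 for TIMP1 by A_11_P0000019900 and A_11_P053801, and 1.22 for TIMP2. The MMP9 shifts lay above those of 99.2% and 98.9% of tested probes, and the TIMP1 shifts above 99.8% and 99.97%. The TIMP2 shift lay above only 89.8%, against 97.0% at pH 7.4. The median over all tested probes was 0.063 at pH 7.0 and 0.033 at pH 7.4. For MMP9 the shift of replicate 3 at pH 7.4 exceeded the mean acid change of both unsaturated probes, but not their acid change in replicate 2, at 2.95 and 3.19. Slide, scan and extraction date all differ between these replicates, and their part in the shift was not tested.

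Duplicate arrays of 1 RNA give the technical error of these readings. The median gap between duplicates was 0.25 to 0.52 over the 7 member probes, against 0.28 over all tested probes, whose 90th percentile was 0.83. The largest gap of a member was 1.50, for MMP9 probe A_11_P053471 in pH 7.4 replicate 1, where the arrays read -2.34 and -0.85. The TIMP1 changes of replicate 1, -0.46 and -0.66, were within the control duplicate gaps of that replicate, 0.77 and 0.85. In replicate 2 the change of A_11_P0000019900, 0.56, was also within its control duplicate gap, 0.66. That of A_11_P053801, 0.46, exceeded its acid and control gaps, 0.15 and 0.17.

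Over all 27136 tested probes, limma with Benjamini-Hochberg adjustment called 0 probes at an adjusted p under 0.05. At an unadjusted p under 0.05 there were 3324 (12.2%), with 1758 higher (6.48%) and 1566 lower (5.77%), and 71 probes (0.262%) had an adjusted p under 0.10. The count of 0 rested on single replicates: 277 probes passed without biological replicate 1 and 647 without biological replicate 2. Leaving out array 6 of the acid group gave 15, and leaving out array 1 of the control group gave 4. The smallest adjusted p of the limma fit was 0.0502, just above the threshold, and 19 probes shared it.

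Genes that act with MMP9 and the TIMPs were followed through 7 lists, with each gene read by its brightest unsaturated probe. Of 129 genes listed, 33 could be named on the array and 21 were bright enough to test. Of these 21, 16 were higher and 5 lower at pH 7.0, with 7 higher and 2 lower in all 3 biological replicates. Over all tested probes 13921 were higher and 13215 lower, and 18% were higher and 15.7% lower in all 3. The median change of the 21 genes was 0.19, against 0.012 over all tested probes. None had a limma adjusted p under 0.05. At an unadjusted limma p under 0.05, 5 were higher (SLPI, ITGB3, CSF2, PDGFB and CXCL8) and 0 were lower, and without the replicate block the count was 2. Over all tested probes 6.48% were higher and 5.77% lower at that threshold. The lists were drawn up with earlier results of these data known. Nothing is therefore read from these counts, and the p-values of the listed genes carry the same limit. The lists cover only a small part of the pathway, since most of its genes could not be named.

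Other proteases of the family could not be followed. Among 24 metalloproteinases and ADAM proteases, only the stromelysin MMP3, which can activate the MMP9 zymogen, was named, and its probe was well above background on 0 of 12 arrays. Of 11 other inhibitors, 2 could be tested. SLPI, a secreted inhibitor of neutrophil elastase, was at 1.15 ± 0.29 (limma adjusted p = 0.181), and its other probe gave 1.10 ± 0.27. SLPI was higher in all 3 replicates, at 0.28, 1.56 and 1.61. It stood at 0.34 with normexp and at 1.58 without biological replicate 1, where it passed (limma adjusted p = 0.0104, the lowest over its alternatives, which ran to 1.00). RECK, a membrane-anchored inhibitor of MMP9, stood at 0.19 ± 0.26 (limma adjusted p = 0.817), with mixed directions.

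The list of serine and cathepsin proteases had 4 tested genes, 3 higher and 1 lower, and none in 1 direction in all replicates. KLK1, the tissue kallikrein of the distal nephron, was at -0.65 ± 0.30 (limma adjusted p = 0.428). The cathepsins CTSK, CTSD and CTSS were at 0.18 ± 0.24, 0.15 ± 0.27 and 0.049 ± 0.34. Each of these 3 changed sign when a single biological replicate was left out. Among the partners that hold MMP9 at the cell surface, only ITGB3, the integrin beta 3 chain, could be tested. It was at 0.61 ± 0.24 (limma adjusted p = 0.357) and higher in all 3 replicates.

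Of the substrates, 6 could be tested, 4 higher and 2 lower, with a median of 0.11. COL1A1, a chain of type I collagen, was at 0.43 ± 0.26, and its other tested probe gave 0.056 ± 0.28. The tight junction protein OCLN was at 0.26 ± 0.23. VEGFA, a growth factor that MMP9 can release from matrix, was lower in all 3 replicates, at -0.49 ± 0.24 (limma adjusted p = 0.443). Its replicate 1 read only -0.076, and its other tested probe gave -0.13 ± 0.34. COL1A2, the partner chain of COL1A1, stood at -0.21 ± 0.23, and its mean over all tested probes was 0.0098. The type IV collagen chains COL4A4 and COL4A5, the class of substrate that MMP9 is best known for, were well above background on 0 of 12 arrays. Probes of COL1A2 and OPTC (opticin) disagreed in sign. The brighter OPTC probe stood at 0.065 ± 0.24 and the dimmer one at -1.70 ± 0.26 (limma adjusted p = 0.0603), values singled out after they were seen.

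Transcription factors that bind the promoters of MMP9 or TIMP1 were represented by 2 genes. NFKB1, the p105/p50 subunit of NF-kappaB, was at 0.50 ± 0.23 (limma adjusted p = 0.420) and higher in all 3 replicates, at 0.48, 0.82 and 0.20. The other tested NFKB1 probe gave 0.33 ± 0.29. FOSB, a subunit of AP-1, was at 0.24 ± 0.29, with replicate 1 at -0.52 and replicate 2 at 0.89.

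The inducers and their receptors had 6 tested genes, 4 higher and 2 lower, and 3 of the higher ones had an unadjusted limma p under 0.05. CSF2, which encodes GM-CSF, had the largest estimate of all 21 genes, 3.11 ± 0.38, with 1.83, 4.11 and 3.39 by replicate. Its limma adjusted p was 0.0502, and over the alternatives it ran from 1.97e-09 to 1.00. CXCL8, the neutrophil attractant interleukin 8, was at 0.86 ± 0.30 (limma adjusted p = 0.290), and its 4 probes gave 0.76 to 0.99. PDGFB, a platelet-derived growth factor chain, was at 0.76 ± 0.23 (limma adjusted p = 0.238) and EGF at -0.48 ± 0.23 (limma adjusted p = 0.442). With normexp PDGFB stood at 0.12. TNF stood at -0.096 ± 0.22. IL1A, named after its values were seen, was too dim for the test, with 5 of 6 acid arrays and 0 of 6 control arrays well above background, and IL1B and HGF were above it on 0 of 12.

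**Figure D4:**
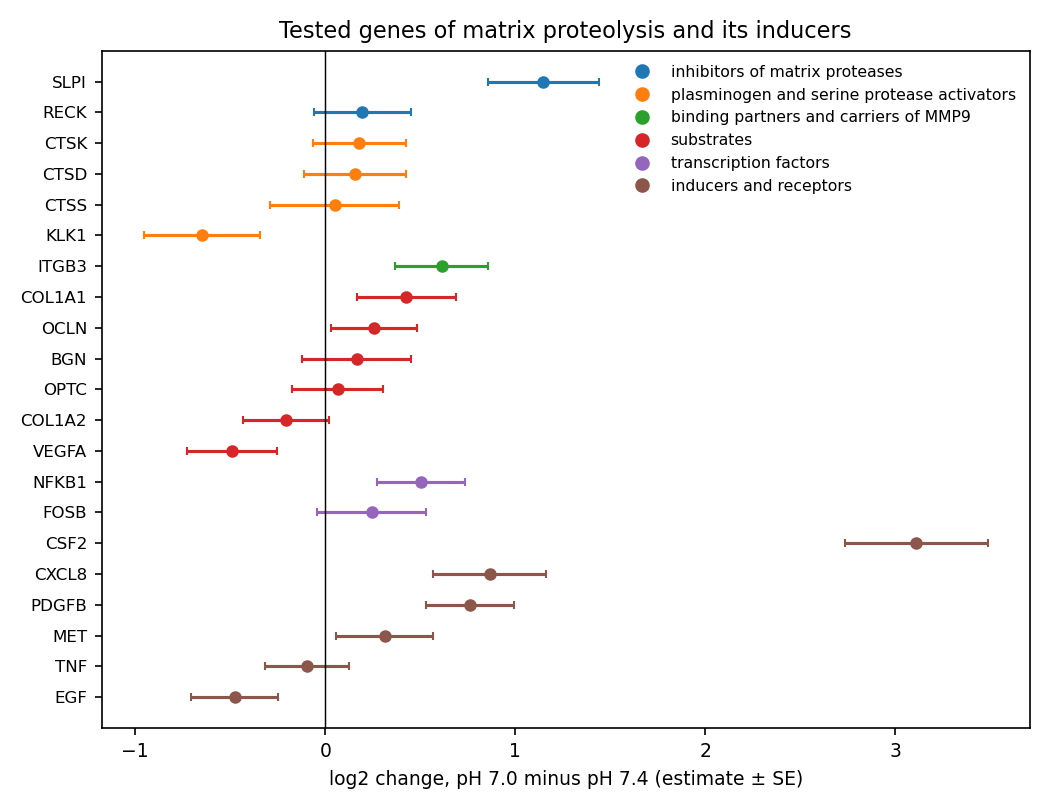
Change at pH 7.0 (log2, pH 7.0 minus pH 7.4, horizontal axis) of the 21 tested genes of matrix proteolysis and its inducers, coloured by list. Points are limma estimates and bars are their SE over 3 pairs of RNAs. CSF2 stands apart at 3.11, SLPI, CXCL8 and PDGFB follow at 0.76 to 1.15, and KLK1, VEGFA and EGF lie on the lower side.

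Over the 6 RNAs, the named genes whose levels followed each member most closely were found after the mean of each biological replicate had been removed, so that each correlation rests on 3 paired changes. For MMP9 (A_11_P053471) they included CCL28, DLC1, JPT1 and ZP2, with Pearson r of 0.9996, 0.999, 0.997 and 0.996 among 574 genes. Their changes had different sizes: CCL28, a mucosal chemokine, was at 1.18, 1.91 and 1.05 in the 3 replicates. JPT1 was only at 0.087, 0.12 and 0.074. For MMP9, 10.6% of the genes reached an r above 0.9, so a high value is common with 3 pairs.

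For TIMP1 (A_11_P0000019900) the closest genes were ABCC5, PTGES2, CYBB, B3GALT4 and GLB1, with r from 0.984 to 0.997. Each of them was lower at pH 7.0 in biological replicate 1 and higher in replicates 2 and 3, as TIMP1 was. Their choice by r largely builds this likeness in. ABCC5, an organic anion pump, was at -0.28, 0.24 and 0.89. For TIMP2 the closest were CCL2, CLDN2, HMGB1, SLC46A2 and DLA-DQB1, with r from 0.994 to 0.998. Each had its largest change in replicate 2, as TIMP2 had, which the choice by r again largely builds in. CCL2, a monocyte attractant, was at 0.73, 2.81 and 1.38, and the claudin CLDN2 at 0.54, 1.95 and 0.97. The top 5 of the 3 members had no gene in common. An r above 0.9 was reached by 8.19% of genes for TIMP1 and 10.98% for TIMP2. These correlations share arrays, slides and scaling and are given as a description.

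The label of the cells was read against marker genes. Of 10 epithelial markers, 4 were named on the array, and OCLN, TJP1 and CGN were well above background on all 12 arrays. The fourth, the claudin CLDN2, was above it on 5 of 6 acid and 3 of 6 control arrays, with a change of 1.15 ± 0.29 (limma adjusted p = 0.174). The summed linear signal of the 4, in multiples of the 75th percentile, was 13.0 to 24.8 over acid arrays and 11.4 to 24.5 over control arrays. Macrophages and neutrophils are rich sources of MMP9 in tissue. The only macrophage marker that could be named, CD163, was well above background on 0 of 12 arrays. Of 3 neutrophil markers, S100A8 alone was bright enough to test (0.17 ± 0.26), and it was well above background on all 12 arrays. The sum of the 3 was 0.166 to 0.278 at pH 7.0 and 0.110 to 0.358 at pH 7.4. Fibroblast markers summed to 0.146 to 0.361 at pH 7.0 and 0.117 to 0.419 at pH 7.4, with PDGFRB and COL1A1 tested and DCN too dim. COL1A1 was well above background on all 12 arrays and PDGFRB on 5 of 6 in each group. The ranges over the arrays of the conditions overlapped in all of these sums, and they include the error between duplicate arrays.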

How the data were processed

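Scans were read with Agilent Feature Extraction 10.7.3.1, per the submitters' processing notes. Per the file headers, the deposited scanner files hold Cy3 intensity per spot, of which the processed signal, the median signal and the local background were read. The authors' deposited value table holds log2 values in 43593 entries. By comparison it equals the log2 processed signal after subtraction of the array's 75th percentile and each probe's median (slopes 0.9996 to 1.0006). No source used here states that scaling, and a direction does not apply to 1-colour values. Columns of the acid arrays 1 to 6 had medians of -0.113, -0.150, 0.226, 0.213, -0.226 and 0.0170, and those of the control arrays 0.0197, -0.212, 0.213, 0.0793, -0.0855 and 0.0656.

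Scanner signals were used without control spots and with 128 outlier spots missing. Saturated spots stayed in, and a probe's spots were averaged on the log2 scale before the 75th percentile was subtracted. Duplicate arrays were averaged, and limma 3.58.1 in R 4.3.3 fitted the acid minus control difference, blocked by biological replicate, two-sided. The pairing comes from the series' design and the numbers in the titles. Deviations from the group means correlated at 0.394, 0.637 and 0.807 within replicates 1 to 3. The highest correlation of the acid RNA with a control RNA of another replicate was 0.255, -0.024 and -0.24, so replicate 1 stood apart least. The fit was tested on simulated data. The number of arrays and the 3 pairs limit the precision. Symbols came from RefSeq accessions looked up in the RefSeq gene table of UU_Cfam_GSD_1.0, and other probes were not named.

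The members and lists were chosen with earlier results of these data known. The naming rule took every member probe, up to 4 tested genes per pathway list by lowest unadjusted p (17 genes), and the 5 named genes most correlated with each member, of which 1 is not reported here. Alternatives covered the replicate block, duplicate arrays, normexp (offset 50), median and quantile normalization, the deposited value table, filters on dim, outlier and saturated spots, the mean of a gene's probes, and leaving out each replicate and array. The percentile over spots and the normexp version with replaced backgrounds were added after the data were seen. Figures used python 3.11.15 and matplotlib 3.10.9.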

Additional observations from a re-analysis of the deposited data

How the results depend on the processing

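The direction of MMP9 at pH 7.0 was kept by A_11_P053471 under all alternatives, at 1.75 to 2.27, and at 1.80 to 2.51 with a replicate or array left out. A_11_P053481, which the filter on all arrays removed, was higher under the rest, at 0.72 with normexp and 1.31 with normexp and replaced backgrounds, and at 1.84 to 2.44 in the leave-outs. The backgrounds were replaced because 8 spots of pH 7.4 array 3 and 3 spots of pH 7.4 array 4 lay over 50 below their local background, against 0 on the other arrays. TIMP2 read -0.0090 with normexp and 0.32 to 0.67 in the leave-outs. TIMP1 ran from -0.10 to 1.09 (A_11_P053801) and from 0.050 to 1.10 (A_11_P0000019900) in the leave-outs. In the leave-outs, MMP9 (A_11_P053471) minus TIMP1 ran from 1.21 to 2.46 and MMP9 minus TIMP2 from 1.37 to 2.14. MMP9 minus TIMP1 was 0.99 with normexp and 1.41 with replaced backgrounds. With saturated spots missing, the bright MMP9 probes rested on biological replicate 1, at 1.03 (A_11_P053796) and 1.13 (A_11_P0000019937). The means of the changes are the same without the replicate block.

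Without the replicate block limma called 0 probes, with 810 in place of 3324 at an unadjusted p under 0.05 and 2 in place of 5 pathway genes. Calls at an adjusted p under 0.05 numbered 690 with all arrays and the RNA as a random block, 14 with normexp, 24 with median scaling, 134 for probes above background on all arrays, 20 with the percentile over spots, and 0 to 647 in the leave-outs. At the unadjusted threshold normexp gave 1030 and the leave-outs 1943 to 3953. Pathway genes there numbered 9 with the random block, 1 with normexp and 3 to 7 in the leave-outs. Signs turned with normexp for RECK (-0.50), CTSK (-0.029), CTSS (-0.26) and FOSB (-0.12), and for COL1A2 with the mean of its probes (0.0098). In the leave-outs, RECK ran from -0.087 to 0.43, CTSD from -0.19 to 0.39, CTSK from -0.060 to 0.35, CTSS from -0.28 to 0.62 and FOSB from -0.081 to 0.63. The cause of these moves was not tested, and signals near background limit the dim probes.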
